A study of Xenopus tropicalis with 2 samples.

Results

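The genes described here are 8 genes that make, remove and sense retinoic acid, followed through the cell states of the early gastrula of *Xenopus tropicalis*. They were chosen by name from the 21821 genes of the deposited count table, and all 8 were found there: *aldh1a2*, *rdh10* and *dhrs3* for synthesis and its control, *cyp26a1* and *cyp26c1* for breakdown, and the receptor genes *rara*, *rarb* and *rarg*. The material was nuclei of wild-type whole embryos at stage 10.5, fixed, carrying no transgene and given no treatment, and profiled by single-nucleus RNA sequencing with split-pool barcoding (Parse WT Mini kit). The 2 samples are sublibraries of 1 pool of nuclei, so they measure technical spread only. With 1 pool and 1 condition, cell states were compared within the pool and no test or p-value was possible.

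Retinoic acid is a small diffusible signal made from vitamin A. Rdh10 oxidises retinol to retinaldehyde, and Aldh1a2 oxidises retinaldehyde irreversibly to retinoic acid, while Dhrs3 returns retinaldehyde to retinol. Cyp26 enzymes hydroxylate retinoic acid for removal, so that cells with Aldh1a2 can act as sources and cells with Cyp26 as sinks. The receptors bind DNA with an Rxr partner and exchange corepressors for coactivators when the ligand binds. In vertebrate embryos the pathway is best known for patterning the trunk mesoderm, the hindbrain and the foregut along the anteroposterior axis.

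The sublibraries held 44341256 and 44026454 unique molecular identifiers (UMIs, each standing for 1 captured transcript). The minimum of 1500 detected genes was passed by 4245 and 4229 barcodes, and 206 barcode labels occurred in both sublibraries. After likely doublets had been left out, 7690 nuclei with a median of 4512 UMIs were clustered without the 8 genes and without the other genes of a retinoic acid list. Of the 14 clusters, those named from marker genes held 4254 ectoderm-like, 2036 mesoderm-like and 699 endoderm-like nuclei, so all 3 germ layers of the embryo were present, and the names mean likeness to the markers only. Genes said to lead a cluster were picked from its 10 genes with the largest fold over all other nuclei, among genes with at least 200 UMIs. They are not always the first of the 10. Clusters 11 (367 nuclei) and 14 (139 nuclei) shared high *dscaml1* and *tp73* and stayed unnamed. Cluster 13 (195 nuclei), with 14263 UMIs per nucleus and a doublet score of 0.123 at the median, was treated as mixed, and entered no comparison of classes. It does count among the 14 clusters in the orders and correlations.

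Levels are CPM, the UMIs of a gene scaled to a fixed total, over the summed nuclei of a cluster. Each level carries an exact 95% Poisson interval and each share of nuclei an exact 95% Clopper-Pearson interval. Neither covers more than counting error. Levels were compared between cell states for 1 gene at a time and not between genes, which differ in length. A lower level can mean fewer transcribing nuclei or less RNA in each, so the share of nuclei with a UMI, after every nucleus had been thinned to 2500 UMIs, is given as well. Barcodes with fewer than 200 genes gave the level of each gene in free RNA.

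*aldh1a2* (XBXT10g019318, chromosome 3, 99573657 to 99607654 in the assembly UCB_Xtro_10.0), the gene of the enzyme that completes synthesis, was highest in 2 cell states of different germ layers. In cluster 2, a ventral mesoderm-like cluster of 826 nuclei led by *sdc3*, *tbx6*, *rspo3* and *wnt8a*, it stood at 5094 CPM in sublibrary 1 and 4621 CPM in sublibrary 2. In cluster 10, a dorsal endoderm-like cluster of 423 nuclei led by *tgm2*, *cdh12*, *foxp2* and *hhex*, it stood at 4536 and 4701 CPM. The ranges of these clusters overlapped, and the ratio of cluster 2 to cluster 10 was 1.12 in sublibrary 1 and 0.983 in sublibrary 2. Cluster 2 held 10.7% of the nuclei and 39.2% of the *aldh1a2* UMIs, and cluster 10 held 5.50% of the nuclei and 19.2% of the UMIs. A UMI was found in 97.9% (96.7 to 98.8%) and 94.8% (92.2 to 96.7%) of their nuclei. Within cluster 10 the level was uneven. Nuclei with a UMI of *wnt8a* had more *aldh1a2* than the rest and those with *hhex* had less, as given below.

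The other mesoderm- and endoderm-like clusters had less *aldh1a2*. Cluster 7, dorsal mesoderm-like and led by *lhx6*, *pnp* and *plod2*, was at 1571 and 1581 CPM. Cluster 12, ventral endoderm-like and led by *slc12a3l* and *slc5a8.1*, was at 1093 and 1210 CPM, and cluster 5, ventral mesoderm-like and led by *cdx2*, *ventx3.2* and *bmper*, at 679 and 785 CPM. The ranges of these 3 clusters overlapped neither each other nor those of clusters 2 and 10. The 2 ventral mesoderm-like clusters thus lay at opposite ends of the mesoderm, with 6.61-fold more *aldh1a2* in cluster 2 than in cluster 5 (6.34 to 6.91).

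In the ectoderm-like clusters *aldh1a2* lay between 82.7 CPM in cluster 1 (outer, non-neural, 75.4 and 89.7 in the sublibraries) and 240 CPM in cluster 8 (inner, neural, 264 and 219). The level in cluster 2 was 58.6-fold that in cluster 1, where 14.1% of nuclei (12.1 to 16.2%) had a UMI. The level in free RNA was 1412 CPM, and that of cluster 1 was 5.86% of it. In the order of the 14 clusters, 8 of 13 neighbouring pairs had sublibrary ranges that did not overlap, and 7 had Poisson intervals that did not.

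**Figure D1:**
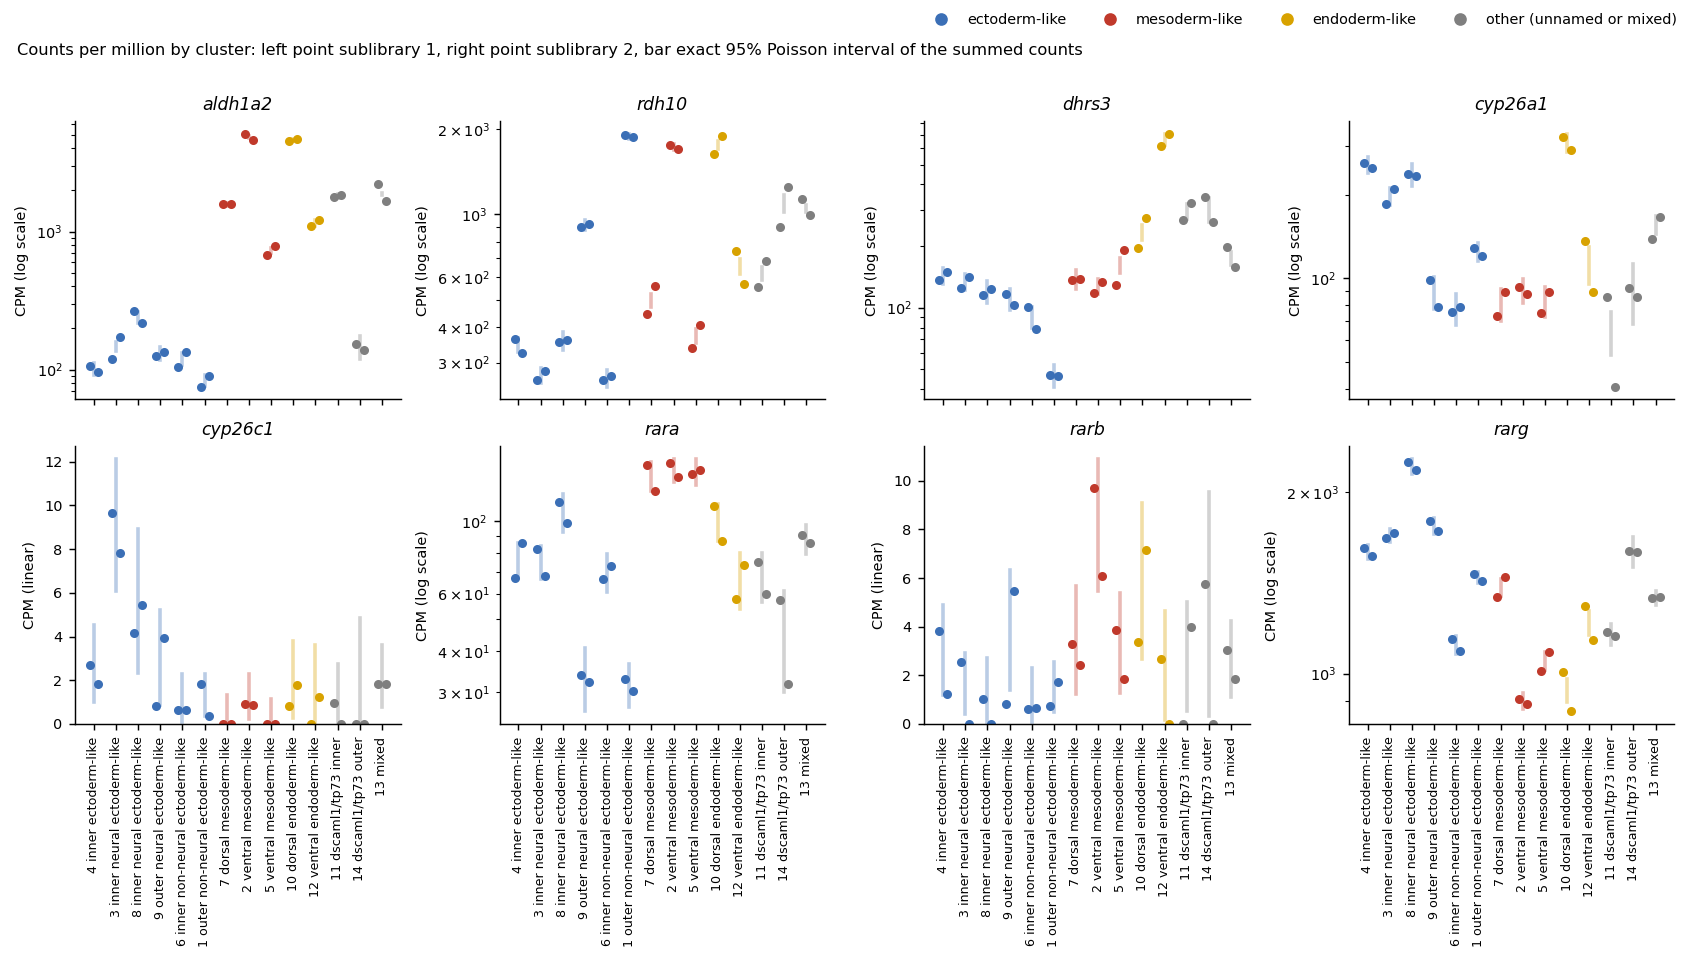
Level of each gene in the 14 clusters, in CPM on log axes (linear axes for *cyp26c1* and *rarb*). The left and right points of a cluster are sublibraries 1 and 2, and the bar is the exact 95% Poisson interval of the summed counts. *aldh1a2* stands at 4850 CPM in cluster 2 and 4616 CPM in cluster 10 and at 240 CPM or below in the named ectoderm-like clusters, whereas *rdh10* is highest, at 1884 CPM, in the outer ectoderm-like cluster 1.

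*rdh10* (XBXT10g000332, chromosome 6, 121111120 to 121125497), which supplies the substrate of Aldh1a2, was high in both *aldh1a2*-rich clusters and also in the surface ectoderm. It reached 1898 and 1871 CPM in cluster 1 (outer non-neural ectoderm-like, led by *ugt3a2*, *ag1* and *astl2c*), 1626 and 1887 CPM in cluster 10 and 1758 and 1696 CPM in cluster 2. The ranges of clusters 10 and 2 overlapped, and clusters 1 and 10 overlapped as well. A UMI was found in 92.2%, 92.9% and 89.6% of the nuclei of clusters 1, 10 and 2. Cluster 1 alone held 27.6% of the *rdh10* UMIs in 14.7% of the nuclei.

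The other *rdh10* levels separated the layers of the ectoderm. Cluster 9, outer neural ectoderm-like and led by *tspan1* and *cyp1a1*, was at 906 and 928 CPM, and cluster 14, the outer of the *dscaml1* and *tp73* clusters, at 905 and 1249 CPM. The inner ectoderm-like clusters 3, 4, 6 and 8 lay between 265 CPM (cluster 6, 260 and 270 in the sublibraries) and 358 CPM (cluster 8, 354 and 361). Cluster 1 was 7.11-fold above cluster 6, in which 37.5% of nuclei (33.6 to 41.6%) had a UMI. Cluster 6 was at 29.6% of the level in free RNA, 895 CPM. Cluster 1 therefore joined the highest *rdh10* to the lowest *aldh1a2* of all clusters.

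*dhrs3* (XBXT10g012220, chromosome 7, 95727920 to 95744275), which works against Rdh10 and in vertebrates is itself a target of retinoic acid, had a different peak. It was highest in cluster 12, ventral endoderm-like, at 619 and 706 CPM, where 63.8% of nuclei (57.8 to 69.4%) had a UMI. The *dscaml1* and *tp73* clusters 14 (348 and 261 CPM) and 11 (267 and 325 CPM) and the dorsal endoderm-like cluster 10 (195 and 275 CPM) followed, with overlapping ranges. Cluster 12 was above all of them in both sublibraries.

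The lowest *dhrs3* level was again in cluster 1, at 46.7 and 46.6 CPM, with a UMI in 7.52% of nuclei (6.05 to 9.22%). The span from cluster 12 to cluster 1 was 14.2-fold, and cluster 1 was at 30.5% of the level in free RNA (153 CPM). Cluster 14, which like cluster 1 is outer in its markers, had 6.45-fold more *dhrs3* than cluster 1 (5.38 to 7.73). The remaining clusters, between 89.4 and 173 CPM, followed each other closely, and only 3 of 13 neighbouring pairs in the whole order did not overlap between sublibraries.

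*cyp26a1* (XBXT10g014326, chromosome 7, 25306417 to 25310610), the main retinoic acid hydroxylase of the vertebrate gastrula, was highest in the same dorsal endoderm-like cluster 10 that was rich in *aldh1a2*. It stood there at 324 and 291 CPM, with a UMI in 43.0% of nuclei (38.3 to 47.9%). Cluster 4, inner ectoderm-like and led by *pax3*, *insm1* and *pdgfa*, followed at 261 and 251 CPM and 41.3% of nuclei. The inner neural clusters came next, with 239 and 233 CPM in cluster 8 (led by *zic4* and *sox2*) and 186 and 209 CPM in cluster 3 (led by *pde7b* and *ak1*). The sublibrary ranges of these 4 clusters did not overlap, but the Poisson intervals of clusters 4 (240 to 274 CPM) and 8 (215 to 258 CPM) did.

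All mesoderm-like clusters were low in *cyp26a1*, at 90.3 CPM in cluster 2, 82.4 CPM in cluster 5 and 80.5 CPM in cluster 7. Inner non-neural cluster 6 was at 75.8 and 79.0 CPM, and the lowest, cluster 11, at 85.7 and 40.8 CPM. The span was 4.85-fold, and the lowest cluster was at 57.5% of the level in free RNA (110 CPM). The 2 clusters rich in *aldh1a2* differed in *cyp26a1*, with 0.293 of the cluster 10 level in cluster 2 (0.259 to 0.332). Within the endoderm, cluster 10 had 2.76-fold more *cyp26a1* than cluster 12 (2.33 to 3.28) and 0.352 of its *dhrs3* (0.317 to 0.391), so the sink gene and the retinaldehyde reductase gene were highest in different endoderm-like states.

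*cyp26c1* (XBXT10g018025, chromosome 7, 25320614 to 25336831), a relative known from the anterior neural plate and hindbrain, was rare, with 84 UMIs in 74 nuclei. Cluster 3 held 35 of these UMIs (41.7%), at 9.64 and 7.80 CPM, and cluster 8 held 10, at 4.15 and 5.44 CPM. No UMI was found in clusters 5, 7 and 14, which allows levels of up to 0.943, 1.08 and 3.96 CPM. At this depth the level in free RNA, 2.09 CPM, was above that of 10 of the 14 clusters. The gene lies 10003 bp downstream of *cyp26a1* in coordinate order on the same chromosome.

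*rara* (XBXT10g010758, chromosome 10, 8738738 to 8801856) was highest in the mesoderm. Clusters 2, 5 and 7 were at 150 and 136, 140 and 143, and 149 and 124 CPM, ranges that overlapped throughout, and 27.4 to 28.5% of their nuclei had a UMI. The outer ectoderm-like clusters 9 (33.7 and 32.1 CPM) and 1 (33.0 and 30.1 CPM) were lowest and also overlapped. The span was 4.54-fold, and the lowest level was 49.9% of that in free RNA (63.2 CPM). Among ectoderm-like clusters the highest was inner neural cluster 8, at 114 and 98.9 CPM.

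*rarb* (XBXT10g006964, chromosome 6, 47515101 to 47626477), the receptor gene that retinoic acid itself induces in many vertebrate tissues, had 114 UMIs in 101 nuclei. Cluster 2 held 35 of them (30.7%), at 9.69 and 6.07 CPM, and cluster 10 held 12, at 3.37 and 7.16 CPM. Both are the clusters with most *aldh1a2*, but the counts were small, and the level in free RNA was 3.90 CPM. Only 1 of 13 neighbouring pairs in its order was apart in both sublibraries, and 0 were apart by the Poisson intervals.

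*rarg* (XBXT10g003655, chromosome 2, 147251998 to 147368759) was the receptor gene found in nearly all nuclei, with a UMI in 97.5% of nuclei at full depth and 91.7% at 2500 UMIs. It was highest in inner neural cluster 8 (2240 and 2176 CPM), then in outer neural cluster 9 (1794 and 1721 CPM) and inner neural cluster 3 (1680 and 1710 CPM). It was lowest in cluster 2 (908 and 892 CPM) and cluster 10 (1005 and 866 CPM), the 2 clusters richest in *aldh1a2*. The span was 2.45-fold, and the lowest level was 78.5% of that in free RNA (1146 CPM). Summed over the sublibraries, clusters 2, 10, 5 and 6 lay below free RNA, whose part in the near-full detection was not tested. In the order of clusters 9 of 13 neighbouring pairs did not overlap between sublibraries. By the Poisson intervals only 4 of the 13 pairs were apart. Across the 14 clusters the log2 levels of *rarg* and *aldh1a2* had a Pearson r of -0.69, against 0.64 for *rara* and *aldh1a2*. These are descriptions over 14 clusters of the same libraries, which share depth and, for related states, much of their RNA.

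**Figure D2:**
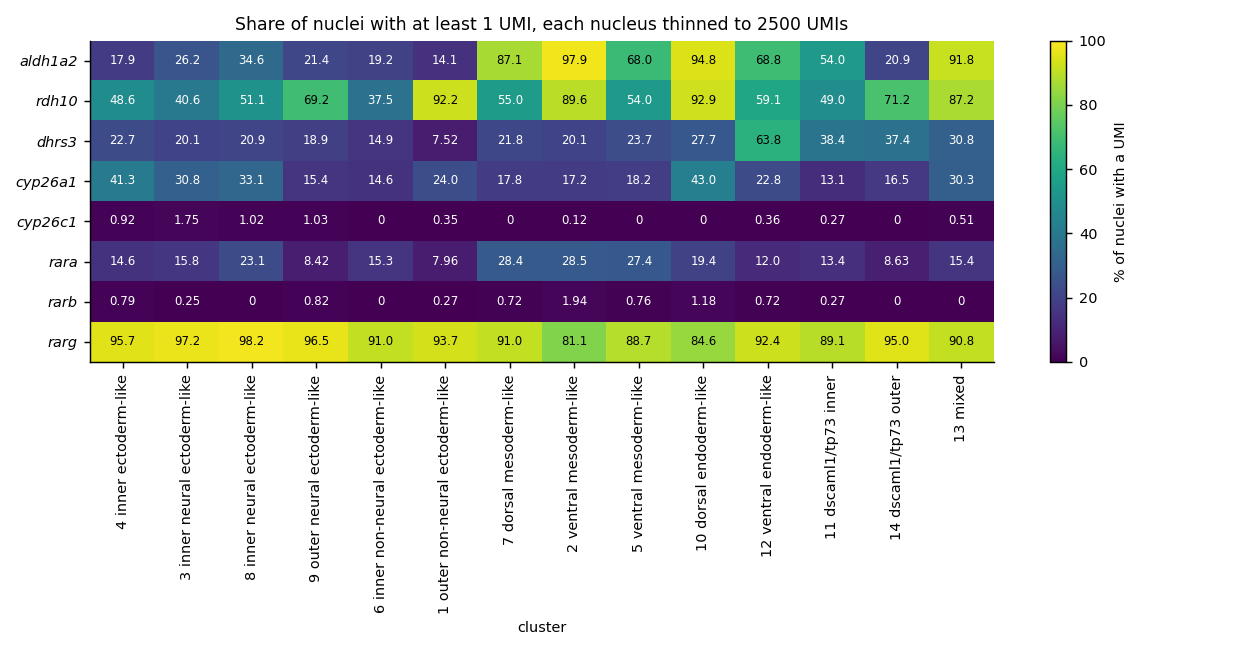
Share of nuclei with at least 1 UMI of each gene (rows) in each cluster (columns), in percent, with every nucleus thinned to 2500 UMIs. *rarg* is near full detection in all clusters, with 81.1% in cluster 2 as its lowest share, *aldh1a2* runs from 14.1% in cluster 1 to 97.9% in cluster 2, and *cyp26a1* is highest in cluster 10 at 43.0% and cluster 4 at 41.3%.

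The first comparison asked in which germ layer sources, sinks and receptors lie, with ectoderm-like against mesoderm- and endoderm-like nuclei. *aldh1a2* was at 125 against 2859 CPM, 22.9-fold lower in the ectoderm (22.0 to 23.8), with log2 ratios of -4.61 and -4.41 in the sublibraries. *rara* was 2.09-fold lower (1.94 to 2.24), and *rarb* 3.02-fold lower (1.95 to 4.76) on 32 against 66 UMIs. *cyp26c1* was 5.72-fold higher in the ectoderm (2.74 to 13.8) on 67 against 8 UMIs. *cyp26a1* (160 against 124 CPM), *rarg* (1579 against 1068 CPM) and *rdh10* (807 against 1074 CPM) differed by less than 2-fold, and *dhrs3* (101 against 212 CPM) passed 2-fold in sublibrary 2 and not in sublibrary 1.

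A gene was called when log2(CPM + 1) differed by 2-fold or more in the same direction in both sublibraries, with at least 50 UMIs over both classes. By that rule 1 of the 8 genes was higher and 3 were lower in the ectoderm, where 6.08% and 7.68% of 10733 genes were. The call of *aldh1a2* was kept in all 14 alternatives tried, and those of *rara*, *cyp26c1* and *rarb* in 5, 9 and 11 of 14. By the rule, some of these alternatives could hardly lose a call. Leaving out a sublibrary can lose one only through the minimum of 50 UMIs, and leaving out that minimum cannot lose one. The same holds for the tallies of the other comparisons. The median log2 ratio was -0.73 over the 8 genes and 0.06 over all genes compared.

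The second comparison set the inner germ layers against each other. *dhrs3* was 2.91-fold lower in mesoderm-like than in endoderm-like nuclei (2.71 to 3.13), at 140 against 407 CPM, and *cyp26a1* was 2.69-fold lower (2.44 to 2.95), at 85.3 against 229 CPM. *aldh1a2* was at 2724 against 3224 CPM and *rdh10* at 986 against 1311 CPM, both under 2-fold, and *rara* was 1.64-fold higher in the mesoderm (1.46 to 1.86). The endoderm class joins clusters 10 and 12, which differed in *dhrs3* (234 and 664 CPM), *cyp26a1* (308 and 112 CPM) and *aldh1a2* (4616 and 1154 CPM). Of 7 genes with 50 UMIs, 0 were called higher and 2 lower in the mesoderm, against 4.08% and 8.86% of 8568 genes. The median log2 ratio of the 7 was -0.24 and that of all genes 0.13. The calls were kept in 12 of 14 alternatives for *dhrs3* and in 9 of 14 for *cyp26a1*. With coarser clusters (resolution 0.5) both of these calls were lost, and *aldh1a2* (-1.47) and *rdh10* (-1.19) were called lower in the mesoderm. The log2 ratio of *aldh1a2* kept its sign in 10 of 14 alternatives (-1.47 to 0.76).

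The third comparison asked for differences along the dorsoventral axis of the mesoderm, with classes set by the highest marker score. The dorsal class, cluster 7, scored 1.039 for dorsal and 0.196 for ventral mesoderm, with 8 markers raised. Of its 10 leading genes 0 were markers of dorsal and not of ventral mesoderm, and 1, *foxd4l1.2*, was a neural marker. The endoderm-like cluster 12 scored higher for dorsal mesoderm (1.166). In the ventral class, cluster 2 scored 1.149 and 1.492, and cluster 5 scored -0.146 and 1.105. Cluster 2 thus scored above cluster 7 for dorsal mesoderm as well, so the ratios compare named classes and need not follow the axis. *rdh10* was 2.35-fold lower in the dorsal class (2.22 to 2.48), at 496 against 1164 CPM. *aldh1a2*, at 1576 against 3139 CPM, was 1.99-fold lower (1.93 to 2.06) and was not called. Its log2 ratio kept its sign in 9 of 11 alternatives (-1.38 to 1.22) and was called in 3, without sublibrary 2, with a minimum of 2000 genes and with the members kept among the clustering genes. *rarg* was 1.44-fold higher in the dorsal class, with log2 ratios of 0.50 and 0.57 in the sublibraries. *cyp26a1* (80.5 against 87.0 CPM), *dhrs3* (137 against 141 CPM) and *rara* (137 against 142 CPM) lay on opposite sides of even in the 2 sublibraries. Of 7 genes, 0 were called higher and 1 lower, against 1.07% and 3.81% of 7646 genes, with medians of -0.11 and 0.04. The ventral class joins clusters 2 and 5, which differed 4.63-fold in *rdh10* (4.35 to 4.93), and the dorsal cluster 7 had 1.33-fold more *rdh10* than cluster 5 (1.23 to 1.44) and 2.15-fold the *aldh1a2* (2.04 to 2.26). The *rdh10* ratio was positive in 4 of the 11 alternatives that gave a dorsal class, and its call was kept in 7. Alternatives that kept the same clusters, such as each sublibrary alone, could hardly reverse it. All 4 reversals came where the classes were drawn anew. Among those settings the call was kept only with a minimum of 2000 genes and with the members kept among the clustering genes. With doublets kept, another seed or 4000 variable genes no dorsal class formed. At resolution 0.5 the log2 ratio of *rdh10* was 1.25, past 2-fold in the opposite direction.

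The fourth comparison concerned likeness to neural markers in the inner ectoderm, with clusters 3 and 8 against cluster 6. Cluster 3, with 798 of the 1287 nuclei of the neural class, was named on weak grounds. Its neural score was 0.204 with 3 markers raised, against 1.129 in cluster 8, 0.231 in cluster 4 and -0.753 in cluster 6. Cluster 8 alone had 3.05-fold the *cyp26a1* of cluster 6 (2.61 to 3.57). *cyp26a1* was 2.72-fold higher in the neural class (2.37 to 3.13), at 211 against 77.4 CPM, and *rarg* 1.68-fold higher (1.61 to 1.74). *cyp26c1* had 45 UMIs against 2, too few to be called. Of 6 genes, 1 was called higher and 0 lower, against 1.81% and 2.51% of 7277 genes, with medians of 0.55 and 0.07. Cluster 4, led by *pax3*, fell in neither class because its marker scores were highest for non-neural ectoderm while *pax3* is on the neural list, and its *cyp26a1* was 3.31-fold that of cluster 6 (2.87 to 3.83). When cluster 4 was counted as non-neural, an alternative chosen after seeing the data, the call of *cyp26a1* was lost. It was also lost with marker genes in place of clusters, a minimum of 2000 genes, resolution 0.5 or another seed, so that it was kept in 11 of 16 alternatives (log2 ratios of 0.29 to 1.54). With the clusters as given, *cyp26a1* was high in clusters 3, 4 and 8 and low in cluster 6.

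The fifth comparison was between layers of the ectoderm. *rdh10* was 5.23-fold lower in inner than in outer nuclei (5.04 to 5.42), at 304 against 1589 CPM, with log2 ratios of -2.38 in both sublibraries. *rara* was 2.47-fold higher in inner nuclei (2.15 to 2.84), at 78.8 against 31.9 CPM, and *cyp26c1* was 2.95-fold higher (1.56 to 6.04) on 55 against 12 UMIs. *dhrs3* (1.87-fold) and *cyp26a1* (1.67-fold) were also higher in inner nuclei and were not called. Of 7 genes, 2 were called higher and 1 lower, against 6.05% and 8.5% of 9291 genes, with medians of 0.74 and 0.17. The call of *rdh10* was kept in all 14 alternatives, that of *rara* in 12 and that of *cyp26c1* in 5.

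**Figure D3:**
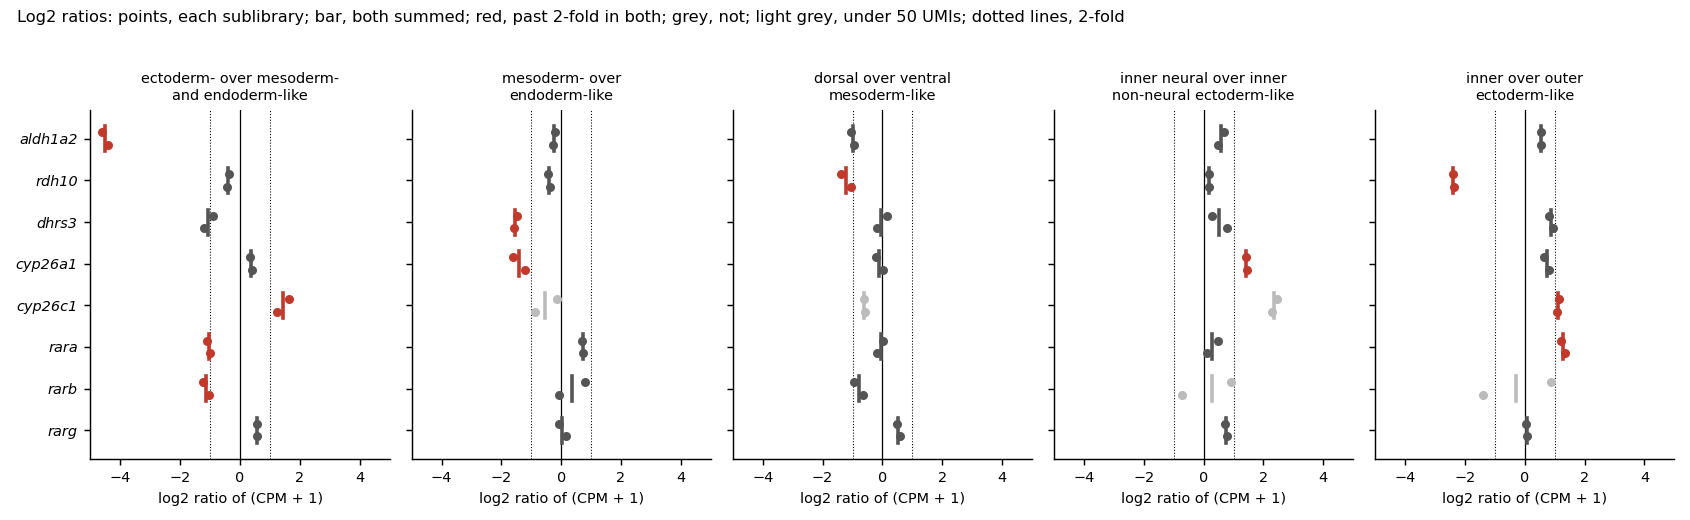
Log2 ratios of CPM + 1 for the 8 genes in the 5 comparisons. Points are the sublibraries, vertical bars both summed, red marks genes past 2-fold in both sublibraries, and light grey marks genes with fewer than 50 UMIs. *aldh1a2* lies at -4.51 in the ectoderm against the other germ layers and *rdh10* at -2.38 in inner against outer ectoderm.

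Clusters are coarse, so the nuclei of 1 cluster were also split by a UMI of a marker gene. A nucleus without a UMI may still transcribe the marker. In the dorsal endoderm-like cluster 10, the 112 nuclei with a UMI of *wnt8a*, a ventrolateral Wnt ligand, had 7756 CPM of *aldh1a2* against 3390 CPM in the other 311, 2.29-fold more (2.20 to 2.38), and 131 against 377 CPM of *cyp26a1*, 0.348 of the level (0.274 to 0.438). Nuclei with *tbxt*, the pan-mesodermal T-box gene, also had more *aldh1a2* (1.44-fold) and less *cyp26a1* (0.473). Nuclei with *hhex*, a homeobox gene of the anterior endoderm, were opposite, with 0.549 of the *aldh1a2* and 1.98-fold the *cyp26a1* of the rest. Each of these 6 ratios lay on the same side of 1 in both sublibraries.

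The source and sink genes were thus unevenly placed within cluster 10. Its score for dorsal endoderm (1.882) was followed by that for ventral endoderm (1.226). The *aldh1a2* level of the whole cluster therefore need not be that of its nuclei with dorsal markers. With *otx2*, a head homeobox gene, *aldh1a2* was at 0.644 and *cyp26a1* at 1.29-fold. Splits by *pnhd* (2.33-fold and 0.453) and by *gsc* (0.510 and 1.37-fold) went the same ways, but those genes were picked after their values had been seen. Median depth on the 2 sides of the *hhex* split was 5180 and 4451 UMIs, and of the *wnt8a* split 4809 and 4749 UMIs. The corresponding ratios of *rdh10* were 1.01 for *wnt8a* and 0.986 for *otx2*, with intervals that included 1.

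The inner neural clusters showed the same opposition at much lower *aldh1a2*. Clusters 8 and 3 stood at 240 and 147 CPM of *aldh1a2*, below its level in free RNA (1412 CPM). The part of free RNA or of remaining doublets in these splits was not tested. In cluster 8, the 113 nuclei with *tbxt* had 409 against 185 CPM of *aldh1a2*, 2.22-fold more (1.84 to 2.66), and 0.500 of the *cyp26a1* (0.381 to 0.648). The 53 nuclei with *cdx4*, a posterior homeobox gene, had 2.17-fold the *aldh1a2* and 0.354 of the *cyp26a1*. In cluster 3, nuclei with *tbxt* had 3.16-fold the *aldh1a2* (2.66 to 3.73) and 0.647 of the *cyp26a1* (0.515 to 0.804). Nuclei with *lhx5*, an anterior neural gene picked after seeing its values, had 2.90-fold the *cyp26a1* in cluster 8 (2.04 to 4.27) and 2.50-fold in cluster 3 (1.91 to 3.31).

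Cluster 12, ventral endoderm-like by its highest marker score, went the other way. There the 139 nuclei with *cdx4* had 3.86-fold the *cyp26a1* of the other 137 (2.60 to 5.88), at 169 against 43.8 CPM, and 0.796 of the *aldh1a2* (0.724 to 0.874). The 62 nuclei with *otx2* had 0.247 of the *cyp26a1* (0.132 to 0.427) and 1.72-fold the *aldh1a2* (1.57 to 1.90). Nuclei with *wnt8a* had more of both, 1.69-fold and 1.46-fold. The sides on which *cyp26a1* lay were thus reversed between clusters 10 and 12 for *otx2* and for *wnt8a*, in both sublibraries. In cluster 12 the score for ventral endoderm (1.498) was followed by those for dorsal endoderm (1.251) and dorsal mesoderm (1.166). By its markers cluster 12 was also outer (0.859, against -0.560 for inner). Cluster 10 was inner (-0.109, against -0.898 for outer). Whether the reversal goes with the dorsoventral names or with these layers was not tested.

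**Figure D4:**
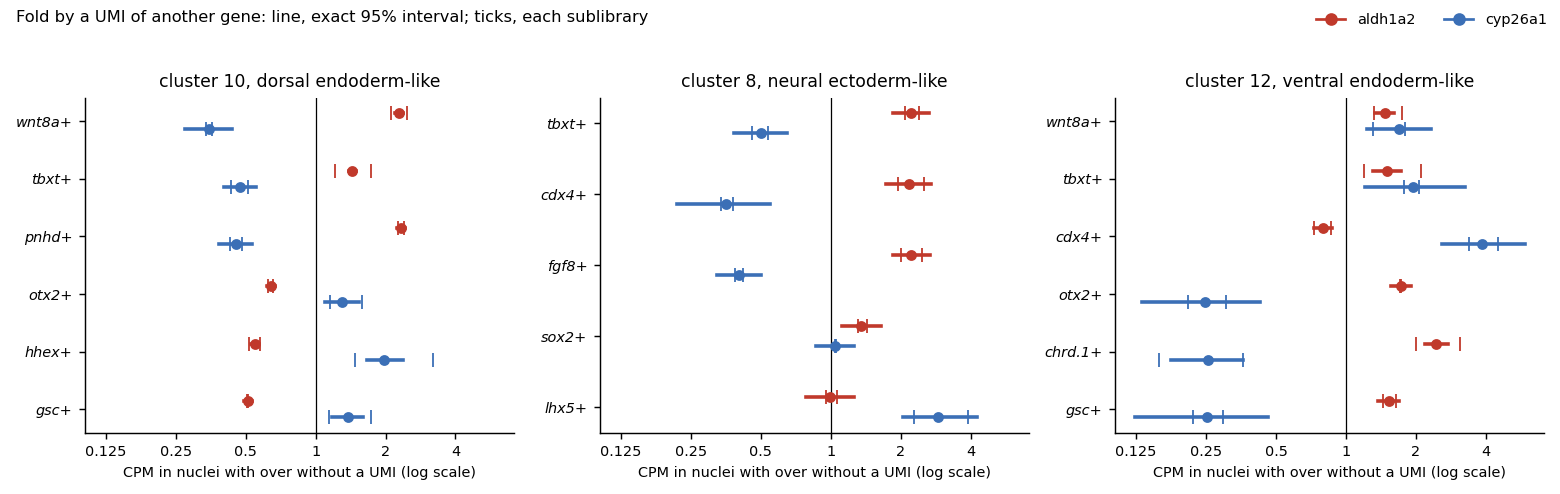
Ratio of CPM between nuclei with and without a UMI of a marker gene (rows) within clusters 10, 8 and 12, on a log axis, for *aldh1a2* (red) and *cyp26a1* (blue). Points are both sublibraries summed, lines exact 95% intervals, and ticks the sublibraries. In cluster 10 nuclei with *wnt8a* had 2.29-fold the *aldh1a2* and 0.348 of the *cyp26a1* of the rest, whereas in cluster 12 nuclei with *cdx4* had 3.86-fold the *cyp26a1*.

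Within the mesoderm, *rdh10* varied more than *aldh1a2* inside cluster 2. Nuclei with *cdx4* had 1016 against 1963 CPM of *rdh10*, 0.517 of the level (0.485 to 0.551), and 0.729 of the *aldh1a2* (0.705 to 0.754). Nuclei with *otx2* had 1.52-fold the *rdh10* (1.45 to 1.61) and 0.935 of the *aldh1a2*. Nuclei with *wnt8a* had 0.647 of the *rdh10* and 1.26-fold the *aldh1a2*, so the gene of the first step and the gene of the second step moved in opposite directions across that split. In clusters 5 and 7, nuclei with *tbxt* had 3.03-fold (2.51 to 3.69) and 3.53-fold (2.96 to 4.25) the *aldh1a2* of those without.

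The unnamed cluster 11 was uneven. Its mean *aldh1a2* was 1804 CPM (1773 and 1837 in the sublibraries), but only 54.0% of its nuclei had a UMI at 2500 UMIs. Nuclei with *wnt8a* had 3738 against 988 CPM of *aldh1a2* (3.78-fold, 3.54 to 4.05), and nuclei with *tbxt* had 3.25-fold the *aldh1a2* (2.99 to 3.54) and 2.02-fold the *rdh10* (1.78 to 2.30). Compared with cluster 14, the outer cluster that shares its *dscaml1* and *tp73*, cluster 11 had 12.4-fold the *aldh1a2* (10.3 to 15.2) and 0.568 of the *rdh10* (0.519 to 0.620).

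Detection in single nuclei, at 2500 UMIs each, gave the overlap of roles. A *cyp26* gene here means *cyp26a1* or *cyp26c1*. Their relative *cyp26b1*, with 45 UMIs in ectoderm-like and 24 in mesoderm- and endoderm-like nuclei, was not counted. *aldh1a2* without a *cyp26* gene was the commonest of the source and sink patterns in the mesoderm (69.9% of nuclei) and the endoderm (55.8%), and was found in 15.5% of ectoderm-like nuclei. A *cyp26* gene without *aldh1a2* was found in 21.9% of ectoderm-like, 2.26% of mesoderm-like and 6.44% of endoderm-like nuclei. At levels of 85.3 and 229 CPM, *cyp26a1* can be missed in mesoderm- and endoderm-like nuclei at 2500 UMIs, so both patterns depend on detection. *aldh1a2* was at 1412 CPM in free RNA, whose part in the ectoderm-like shares was not tested. Cluster 10 had the largest share with both, 39.5% (167 of 423 nuclei), and even there *cyp26a1* was found in 41.6% of the 401 nuclei with *aldh1a2* (36.8 to 46.6%) against 68.2% of the 22 without (45.1 to 86.1%). In cluster 12 the shares were 17.9% of 190 (12.7 to 24.1%) and 33.7% of 86 (23.9 to 44.7%), and the intervals of either pair overlapped slightly. A UMI of at least 1 receptor gene was found in 93.7% of all nuclei.

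The synthesis genes occurred together more often in the pooled mesoderm- and endoderm-like classes, and not in the pooled ectoderm-like class. Each of these classes joins clusters that differ in both genes. *rdh10* was found in 83.8% of endoderm-like nuclei with *aldh1a2* (80.5 to 86.6%) against 56.5% of those without (46.6 to 66.0%), and in 72.3% (70.1 to 74.4%) against 48.0% (42.2 to 53.8%) in the mesoderm. In the ectoderm the shares were 59.4% (56.1 to 62.7%) and 59.9% (58.2 to 61.6%), a difference within counting error. That class joins outer nuclei, with *rdh10* in 85.3% and *aldh1a2* in 16.3%, to inner nuclei, with 44.2% and 23.8%. Its shares therefore do not show how often the genes occur together within a layer. Within cluster 2, *aldh1a2* was found in 98.6% of the nuclei with *rdh10* (97.5 to 99.3%) and 91.9% of those without (84.0 to 96.7%). *cyp26a1* was found there in 15.7% of 740 nuclei with *rdh10* (13.1 to 18.5%) and 30.2% of 86 without (20.8 to 41.1%). *cyp26c1* was found in 2.08% of ectoderm-like nuclei with *cyp26a1* (1.34 to 3.08%) and 0.355% of those without (0.177 to 0.634%). It was found in only 0.823% of the 4254 nuclei of that class. The pooled clusters also differ in both genes, with *cyp26c1* in 1.75% and *cyp26a1* in 30.8% of cluster 3, against 0 and 14.6% of cluster 6. These shares therefore do not show how often the genes occur together within a cluster.

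Of 41 further genes of retinoic acid transport, synthesis, breakdown, binding, cofactors and known targets, 39 were in the table and 24 had at least 50 UMIs. In the germ layer comparison 3 of the 21 compared were higher in the ectoderm and 5 lower, with a median log2 ratio of -0.19. Over all genes 6.08% were higher and 7.68% lower. *tgm2*, a transglutaminase induced by retinoic acid in mammalian cells, was at 1.05 against 17.2 CPM (-3.15). *aldh1a3*, a sister enzyme of *aldh1a2*, was at 0.287 against 5.67 CPM (-2.37), on only 6 against 81 UMIs. Its log2 ratio of mesoderm over endoderm was 0.36 in sublibrary 1 and -2.96 in sublibrary 2. *ncoa2*, a receptor coactivator, was higher in the ectoderm at 208 against 30.9 CPM (2.71). The list thus had members on both sides. With so few genes compared, its counts are a description only.

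In mesoderm- against endoderm-like nuclei 3 of 19 were higher and 3 lower, with a median of 0.06. The shares over all genes were 4.08% and 8.86%. *tgm2* (-4.64), which also led cluster 10, and *ncoa2* (-2.68) were lower and *hoxd1*, an early homeobox target of retinoic acid in *Xenopus*, was higher (2.31) in the mesoderm. In dorsal against ventral mesoderm 0 of 17 were higher and 2 lower, against 1.07% and 3.81% of all genes. Among the lower was *cdx1* (-2.57, with 5 UMIs in the dorsal class), and the median was -0.24.

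Within the ectoderm the list held 1 higher and 1 lower of 14 in neural against non-neural inner nuclei, against 1.81% and 2.51% of all genes. They were the homeobox gene *meis3* (1.56, 903 against 307 CPM) and the coactivator *ncoa1* (-1.64), and the median was -0.04. In inner against outer nuclei 1 of 17 was higher and 2 lower, against 6.05% and 8.5% of all genes, with a median of 0.09. *crabp2*, which carries retinoic acid to its receptors, was 2.17-fold higher in inner nuclei (482 against 222 CPM), and *ncoa2*, at 18.2 against 503 CPM (-4.71), and *cdx1* (-2.23) were lower.

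The genes whose log2 levels ran most like each member across the 14 clusters, among 7999 genes, are given by Pearson r as a description over clusters of the same libraries. For *aldh1a2* they were *pacsin1* (0.98), *fn1* (0.98), the fibronectin gene, and *lefty* (0.98), a secreted Nodal inhibitor. For *rdh10* they were *LOC108647650* (0.93), *gmds* (0.91) and *slc22a15.2* (0.89), and for *dhrs3* *mtmr10* (0.89), *nlgn1* (0.88) and *tyk2* (0.88). For *cyp26a1* they were *tcf7l1* (0.82), a transcriptional repressor of the Wnt pathway, *smc4* (0.81) and *exoc6* (0.80). For *cyp26c1* they were *tecta.1* (0.88), *pacsin3* (0.85) and *zic4* (0.84), and *cyp26c1* itself had no UMI in 3 of the clusters.

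The receptors had yet other companions. *rara* ran with *dll1* (0.95), the Notch ligand gene of the early mesoderm, *kdsr* (0.95) and *ero1a* (0.94). *rarb* ran with *tesc* (0.83), *foxc2* (0.77), a gene of the paraxial mesoderm, and *hrob* (0.75), and *rarg* with *fzd4* (0.91), *rgma* (0.90) and *cdk13* (0.88). No gene stood among the 3 nearest of more than 1 member. Between members the highest r was that of *cyp26a1* with *cyp26c1*, 0.67, which rests on the 84 UMIs of *cyp26c1*.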

How the data were processed

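The authors sequenced fixed nuclei with the Parse kit and aligned the reads to UCB_Xtro_10.0. They deposited UMI counts per barcode and gene, neither normalised nor filtered, and the treatment of reads matching several genes is not given here by any source. The submitters' processing notes name Seurat and Scanpy 1.9.6. Sublibrary depth was 44341256 and 44026454 UMIs, with 58.1% and 58.6% of UMIs in nuclei. 5 rows with a repeated symbol were kept under their gene ID.

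Nuclei were the 8474 barcodes that reached 1500 genes, fewer than the study states. Scrublet (scanpy 1.11.5) called 0 doublets automatically, so nuclei with a score above 0.15 were removed (784, 9.25%). Counts were log-normalised, and 2000 variable genes without the 8 genes and the list, 30 components, 15 neighbours and Leiden clustering at resolution 1 (leidenalg 0.10.2, igraph 0.11.9) gave the clusters. Clusters were named from marker lists, of which *zic1*, *chrd* and *noto* were not analysed here, so class sizes can differ from those of the study.

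Counts were summed per cluster or class. Ratios used log2(CPM + 1), a 2-fold threshold in both sublibraries and at least 50 UMIs. Intervals (scipy 1.17.1) cover counting error only, and levels of 0 are given as the limit that 3 counts set. No test between conditions was made. Scripts were tested on simulated data. Genes named besides the 8 were the 3 most like each by Pearson r over clusters (at least 200 UMIs) and up to 4 of the list per comparison, by size of ratio, of which 1 gene is not reported here. The marker genes of the splits were partly chosen after their values had been seen, as stated there. The 8 genes, the lists and the doublet threshold were chosen with earlier results of these data known. Alternatives were another pseudocount, no UMI minimum, each sublibrary alone, other gene minimums, doublets kept, other resolutions, another seed, members kept among the clustering genes, 4000 variable genes and marker genes in place of clusters.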

Additional observations from a re-analysis of the deposited data

Results flagged for a closer look

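Barcodes with 200 to 1499 genes entered no comparison, and all 8 genes had signal there. Their levels were 1920 CPM for *aldh1a2*, 1106 CPM for *rdh10*, 188 CPM for *dhrs3*, 179 CPM for *cyp26a1*, 2.25 CPM for *cyp26c1*, 84.7 CPM for *rara*, 3.14 CPM for *rarb* and 1510 CPM for *rarg*. In the clustered nuclei the same genes stood at 1309, 918, 159, 142, 1.98, 85.5, 2.69 and 1362 CPM, and in barcodes with fewer than 200 genes at 1412, 895, 153, 110, 2.09, 63.2, 3.90 and 1146 CPM. Whether these barcodes are shallow nuclei or free RNA was not tested.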

How the results depend on the processing

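Of 40 log2 ratios (8 genes in 5 comparisons) 11 were called, and 10 of these kept their sign in all alternatives that gave a value. The calls of *aldh1a2* between germ layers (-4.97 to -3.58) and of *rdh10* between ectoderm layers (-2.48 to -1.23) were kept throughout. Leaving out a sublibrary can lose a call only through the minimum of 50 UMIs, and leaving out that minimum cannot lose one. The exception in sign was *rdh10* in dorsal against ventral mesoderm, which was 0.46 with marker genes in place of clusters, 0.63 with a minimum of 1000 genes, 1.25 at resolution 0.5 and 0.61 at resolution 1.5. The cause was not tested. The number of the 8 genes called moved by more than 1.5 times in 23 of 69 alternatives. Against 4 between germ layers it was 1 with a pseudocount of 5 CPM and 2 with marker genes in place of clusters or a minimum of 2000 genes. Against 2 between mesoderm and endoderm it was 1 with marker genes, a minimum of 2000 genes, doublets kept, another seed or 4000 variable genes, and at resolution 0.5 it was 2 with other genes, *aldh1a2* (-1.47) and *rdh10* (-1.19). Against 1 between dorsal and ventral mesoderm it was 0 with marker genes, a minimum of 1000 genes or resolution 1.5, and 2 with a minimum of 2000 genes or members kept among the clustering genes. At resolution 0.5 *rdh10* was past 2-fold in the opposite direction (1.25), which this count does not show. Against 1 in the inner ectoderm it was 0 with marker genes, a minimum of 2000 genes or another seed, and 2 with no UMI minimum, a minimum of 1000 genes, 4000 variable genes or, chosen after seeing the data, cluster 4 counted as neural. Against 3 between ectoderm layers it was 1 with marker genes or a minimum of 2000 genes. Without sublibrary 1 or 2 the counts ranged from 3 to 3, 2 to 2, 1 to 2, 1 to 1 and 2 to 2 in the 5 comparisons. *aldh1a2* became the second call in the mesoderm without sublibrary 2, *rarb* fell under 50 UMIs and *dhrs3* was called (-1.21) between germ layers without sublibrary 1, and *cyp26c1* fell under 50 UMIs between germ layers and between ectoderm layers without either sublibrary. No paired analysis was possible because the sublibraries come from 1 pool and no test was made. No dorsal mesoderm-like class formed with doublets kept, another seed or 4000 variable genes, so these gave no value for it. Depth limits *cyp26c1* and *rarb*, with 84 and 114 UMIs. At full depth the share of nuclei with a UMI was 55.6% for *aldh1a2*, 37.4% for *cyp26a1* and 33.3% for *dhrs3*, against 47.1%, 24.6% and 22.0% at 2500 UMIs.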

Other observations

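The mixed cluster 13 had 2214 and 1673 CPM of *aldh1a2*, 1136 and 998 CPM of *rdh10*, 138 and 167 CPM of *cyp26a1* and 1333 and 1338 CPM of *rarg* in the sublibraries. It held 14.7% of all *aldh1a2* UMIs in 2.54% of the nuclei, but these deep nuclei also held 10.3% of the UMIs of all genes.

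*cyp26a1*, *cyp26c1* and *exoc6* are neighbours on chromosome 7, with 10003 bp between the first pair and 6857 bp between *cyp26c1* and *exoc6* (25343689 to 25509030). *exoc6* was among the 3 genes whose levels ran most like those of *cyp26a1* (Pearson r 0.80 over 14 clusters). The part of read assignment between neighbouring genes in that likeness was not tested.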
